A study of Mus musculus with 15 samples.

Results

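The 9 genes *Tcf7l2*, *Otx2*, *Dbx1*, *Gbx2*, *Lhx9*, *Barhl2*, *Pou4f1*, *Irx3* and *Foxb1* encode transcription factors of the embryonic diencephalon, the part of the forebrain that lies behind the cortex. They were chosen by name, to weigh how much diencephalic RNA each cortex dissection held. They are 9 of the 23129 genes retained from a count table of 27179 rows, and all 9 were found in it. RNA was sequenced from 15 individual male C57BL/6 mouse foetuses. Of 8 cortices taken at E15.5, 3 were Phf6 +/Y controls and 5 were Phf6 -/Y, with a germline deletion of *Phf6* exons 4 and 5. Of 7 cultures of primary cortical neurons from E16.5, 3 were Phf6 +/Y NesCre T/+ controls and 4 were Phf6 lox/Y NesCre T/+, in which the same exons are removed by a Cre recombinase under the nestin promoter, active in the developing nervous system. Control and deleted cultures both carried the Cre transgene. The cortices came from litters 1 to 3 and the cultures from litters 4 to 7.

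The diencephalon divides into thalamus, habenula, prethalamus and hypothalamus. TCF7L2, a nuclear partner of β-catenin in Wnt signalling, and GBX2, a homeodomain protein, mark postmitotic thalamic neurons. OTX2 patterns the forebrain and midbrain and is also made by the choroid plexus. DBX1 and IRX3 take part in dividing the neural tube into progenitor domains, and BARHL2 is a homeodomain protein of the developing diencephalon. LHX9, a LIM homeodomain protein, is made in part of the thalamus. POU4F1 (BRN3A) marks habenular neurons, and FOXB1 marks the mammillary region of the hypothalamus. Several of these genes are also used outside the diencephalon, so each was read beside the others.

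*Dbx1* (Entrez gene 13172, chromosome 7 of GRCm38.p6, 49631499 to 49636835) passed the test for genotype in the cortex, *Lhx9* (16876, chromosome 1, 138825186 to 138848839) passed it in the neurons, and *Tcf7l2* (21416, chromosome 19, 55741797 to 55933659) reached the highest level of the 9 in any library. Their promoters are shown because these 3 genes carry the results. Each runs from 250 bases before to 50 bases after a transcript start in RefSeq on GRCm38.p6, written 5′ to 3′ on the strand of the gene. The *Dbx1* window is chr7:49636786-49637085 on the minus strand, that of *Lhx9* chr1:138842395-138842694 on the minus strand and that of *Tcf7l2* chr19:55741560-55741859 on the plus strand. Capitals mark matches to an OTX-type motif (TAATCC), a homeodomain motif (TAATTA) or a TCF/LEF motif (CTTTGA), searched on both strands.
Dbx1: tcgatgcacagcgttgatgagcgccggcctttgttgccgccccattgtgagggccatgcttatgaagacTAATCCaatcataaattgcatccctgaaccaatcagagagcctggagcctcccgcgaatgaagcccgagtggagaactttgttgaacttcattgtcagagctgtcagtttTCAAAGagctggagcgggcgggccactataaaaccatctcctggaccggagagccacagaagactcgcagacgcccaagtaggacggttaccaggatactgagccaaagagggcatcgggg
Lhx9: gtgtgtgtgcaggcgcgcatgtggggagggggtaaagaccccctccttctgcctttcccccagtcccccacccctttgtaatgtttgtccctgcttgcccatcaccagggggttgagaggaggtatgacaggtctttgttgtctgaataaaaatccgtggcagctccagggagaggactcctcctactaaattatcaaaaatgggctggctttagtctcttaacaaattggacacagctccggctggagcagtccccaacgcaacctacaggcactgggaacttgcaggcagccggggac
Tcf7l2: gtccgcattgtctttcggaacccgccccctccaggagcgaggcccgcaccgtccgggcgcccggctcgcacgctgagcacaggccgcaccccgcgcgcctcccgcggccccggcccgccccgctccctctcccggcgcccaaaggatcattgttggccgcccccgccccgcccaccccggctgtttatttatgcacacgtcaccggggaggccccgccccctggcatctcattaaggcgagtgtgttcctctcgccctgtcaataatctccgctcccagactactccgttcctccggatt
The start used for *Lhx9* lies inside the annotated span of the gene, and that of *Dbx1* is its outer end. The *Dbx1* window held 1 OTX-type match and 1 TCF/LEF match, the latter on the opposite strand and therefore read as TCAAAG. The windows of *Lhx9* and *Tcf7l2* held no match to these letters. Of the 8 genes with a window in the table (all but *Foxb1*), *Otx2* held 1 homeodomain match and *Gbx2*, *Barhl2*, *Pou4f1* and *Irx3* held none. Among 32851 promoter windows of the same length, 7.06% held the OTX-type motif, 5.29% the homeodomain motif and 16% the TCF/LEF motif. The matches do not overlap each other. A match to 6 letters is a description of the sequence only.

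Libraries held 16858007 to 31157700 counts, and Phf6 -/Y replicate 1 of the cortex stood apart from the other 7 cortices. *Phf6* itself lay at 149 to 191 CPM (counts scaled for library size, here with TMM factors over the 15 libraries) in control cortices and at 42.4 to 55.2 CPM in Phf6 -/Y cortices, and at 228 to 259 CPM in control neurons and 59.9 to 85.8 CPM in deleted neurons. These are counts over the whole gene, so deleted and remaining exons are not separated. Markers of cortical identity such as *Neurod6* and *Neurod2* were present in every library.

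In the control cortices, 5 of the 9 genes lay above 1 RPKM in every library and the other 4 lay below it. Per length, as RPKM (CPM per kilobase of counted transcript, mean ± SD, n = 3), *Otx2* was at 4.81 ± 0.78, *Lhx9* at 3.295 ± 0.98, *Barhl2* at 2.85 ± 0.40, *Tcf7l2* at 2.76 ± 1.17 and *Gbx2* at 1.78 ± 0.67. A gap without overlap followed before *Irx3* at 0.397 ± 0.18, *Pou4f1* at 0.177 ± 0.061, *Dbx1* at 0.165 ± 0.24 and *Foxb1* at 0.0752 ± 0.027 RPKM. All other neighbours in this order overlapped in their ranges over the 3 libraries, whereas *Otx2* did not overlap *Barhl2* or *Gbx2*. *Dbx1* had 29, 0 and 3 counts in the 3 controls, and *Foxb1* had 10, 4 and 5.

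All 9 genes had their highest cortical level in Phf6 -/Y replicate 1. *Tcf7l2* was at 18.1, 7.49 and 12.05 CPM in the controls, and at 268, 15.52, 14.3, 11.5 and 10.9 CPM in Phf6 -/Y replicates 1 to 5. Leaving replicate 1 aside, the remaining Phf6 -/Y cortices lay within the control range. *Gbx2*, which like *Tcf7l2* belongs to the thalamus, was at 4.88, 4.32 and 2.18 CPM in the controls and at 38.9, 5.31, 5.49, 5.14 and 3.01 CPM in the Phf6 -/Y cortices. Here replicates 1 to 4 all exceeded every control and replicate 5 did not. *Lhx9* was at 23.9, 12.8 and 20.1 CPM in the controls and at 79.3, 24.3, 24.4, 17.9 and 24.2 CPM in the Phf6 -/Y cortices. Replicate 4 fell among the controls, and replicates 2, 3 and 5 were above the highest control by less than 1 CPM.

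*Otx2* reached 24.6 CPM in replicate 1 against 5.89 to 9.35 CPM in the other 7 cortices. *Barhl2*, another homeobox gene, reached 17.6 CPM against 5.10 to 8.01 CPM. Of the remaining Phf6 -/Y cortices, replicate 5 lay below every control for both genes. For *Barhl2*, replicate 4 also lay below every control, and replicate 3 lay above every control. The habenular gene *Pou4f1* reached 5.67 CPM against 0.366 to 0.939 CPM. *Irx3*, an Iroquois family gene, reached 11.01 CPM against 0.524 to 1.60 CPM. *Foxb1* reached 5.17 CPM, from 123 counts, against 0.0836 to 0.313 CPM, from 2 to 10 counts. *Pou4f1*, *Irx3* and *Foxb1* thus rested on few reads outside replicate 1. *Dbx1*, a progenitor gene, was at 0.907, 0 and 0.121 CPM in the controls and at 12.7, 0.860, 0.402, 0.749 and 0.502 CPM in the Phf6 -/Y cortices. Control replicate 1 exceeded Phf6 -/Y replicates 2 to 5, and a count of 0 in control replicate 2 allows up to 0.119 CPM at 3 counts.

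**Figure D1:**
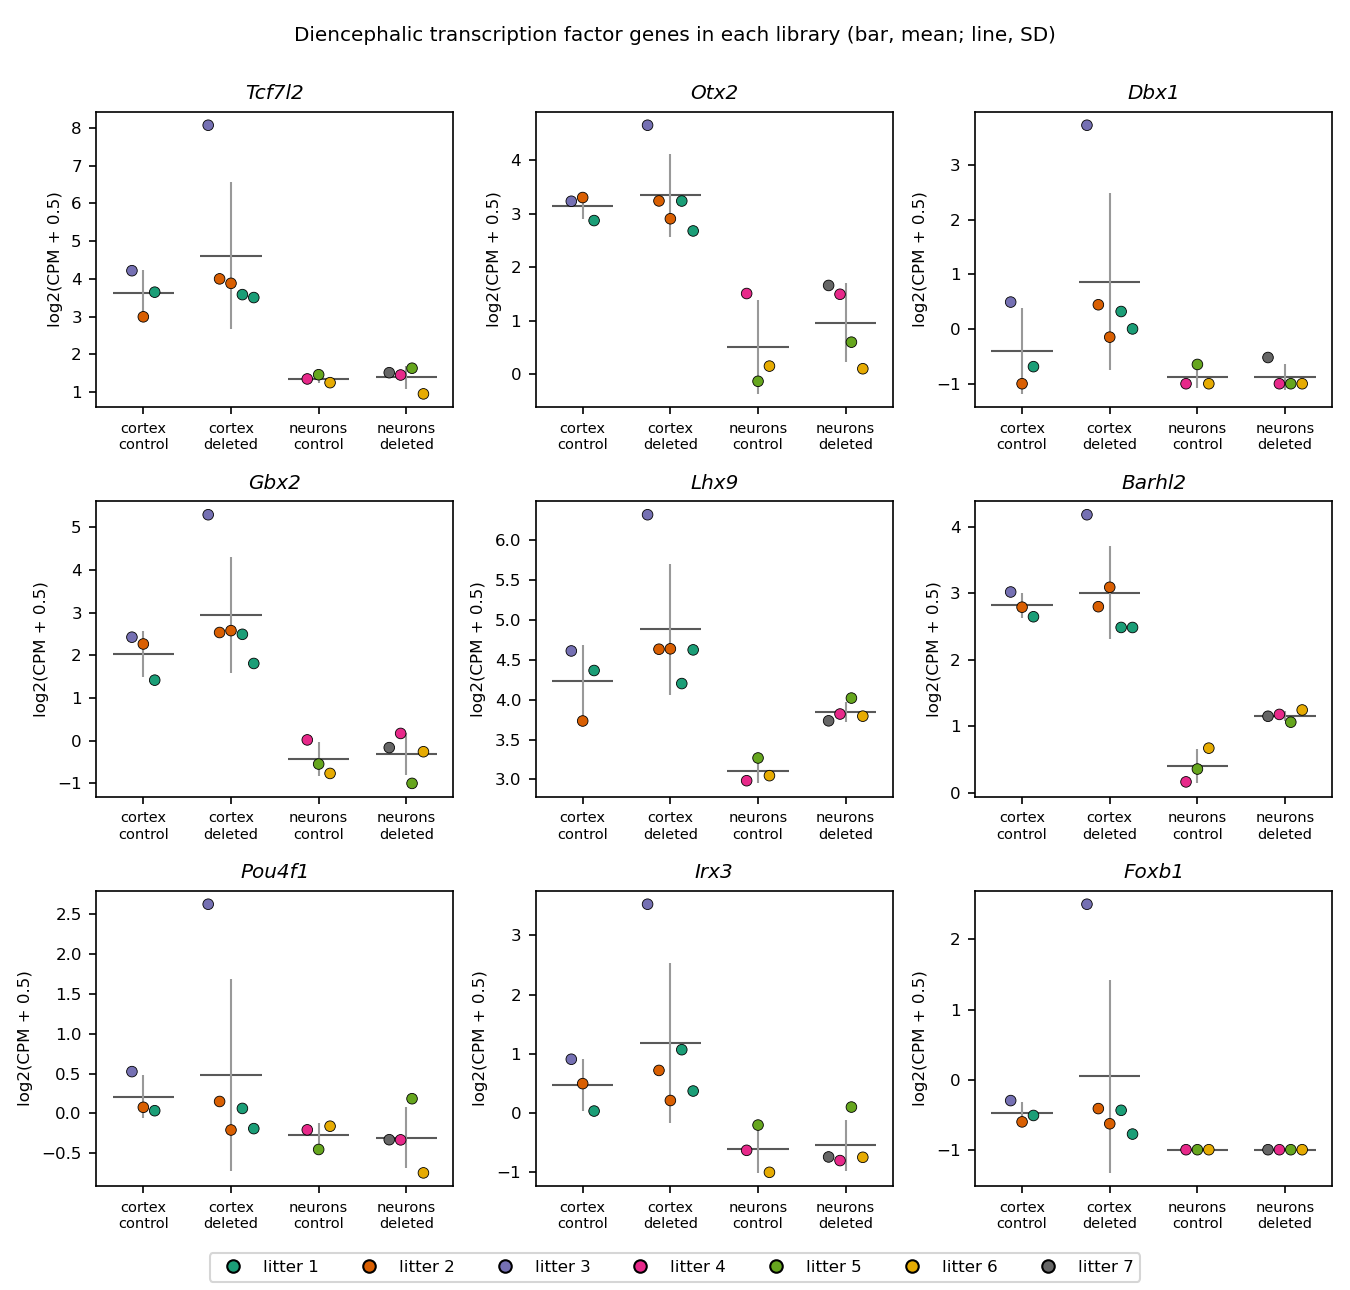
Level of each gene as log2(CPM + 0.5) in every library, with points coloured by litter, the bar at the group mean and the vertical line 1 SD on either side (n = 3, 5, 3 and 4). In each panel the litter 3 point of the Phf6-deleted cortices is the highest of the 15, at 268 CPM for *Tcf7l2* and 12.7 CPM for *Dbx1*.

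The ratio of replicate 1 to the highest of the other 7 cortices differed between the genes. It was 16.52 for *Foxb1*, 14.8 for *Tcf7l2* and 14.0 for *Dbx1*, then 7.08 for *Gbx2*, 6.88 for *Irx3* and 6.04 for *Pou4f1*. For *Lhx9* it was 3.25, for *Otx2* 2.63 and for *Barhl2* 2.20. Genes with more expression in the other cortices therefore mostly had the smaller ratios, with *Tcf7l2* as the exception. All 9 genes, 8 of them among the tested ones, were at least 2-fold above every other cortex, whereas 0.597% of 14749 tested genes were, and 16.9% of those genes had their highest level in that library. Since these genes had been picked with that library in view, the comparison with the background is a description.

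**Figure D2:**
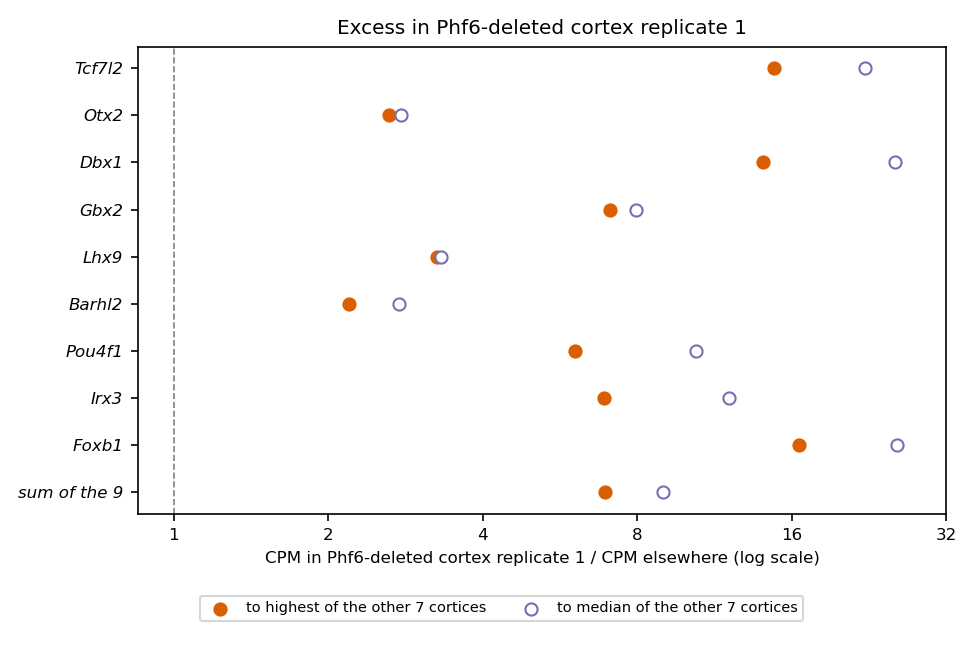
CPM of each gene in Phf6 -/Y cortex replicate 1 divided by the highest (filled) and by the median (open) of the other 7 cortices, on a log axis. All filled points lie above 2, from 2.20 for *Barhl2* to 16.52 for *Foxb1*, and the sum of the 9 genes lies at 6.91.

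Summed over the 9 genes, replicate 1 held 463 CPM and the other 7 cortices 42.0 to 66.9 CPM, a ratio of 6.91 to the highest of them and 8.96 to their median. *Tcf7l2* made up much of that sum, and without it the ratio to the highest was 3.99. Control replicate 1, the only sequenced litter mate of Phf6 -/Y replicate 1, had the highest sum of the remaining 7. It was also the highest of those 7 for *Tcf7l2*, *Dbx1*, *Pou4f1* and *Foxb1*, that is for 4 of the 9 genes, at levels 6.04 to 16.52 times below its litter mate. In these bulk libraries, more cells of a type and more RNA per cell cannot be told apart.

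Over the 8 cortices the 9 genes varied together. The Pearson correlation of log2(CPM + 0.5) over the 36 pairs of genes was 0.77 to 0.99 with a median of 0.94. All points share libraries and scaling, and 1 of the 8 is Phf6 -/Y replicate 1. Without that library, the 36 correlations over 7 cortices were -0.47 to 0.88 with a median of 0.41. In the 7 cultures the 28 pairs of the 8 genes with any counts had a median of 0.084.

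Genes whose level over the 8 cortices was most like the mean of the 9 were *Syt13* (r = 0.99), which encodes a synaptotagmin, followed by *Ankrd13a*, *Ebf3*, *Nkx2-2*, *Slit2*, *Gata2*, *Rmst*, *Irx1*, *Qrfprl* and *Crb1* (r = 0.97 or above for each). *Syt13* was at 161 CPM in replicate 1 and at 11.3 to 20.9 CPM in the other 7. *Ankrd13a* moved much less, with 112 CPM against 83.0 to 89.2 CPM. Without replicate 1 the correlations of these 10 genes fell to between 0.36 and 0.77.

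Marker lists of neighbouring regions moved with the 9 genes in replicate 1. The sum of 18 other genes of the thalamus, habenula and pretectum (the other thalamic and habenular list) was 261 CPM against 84.0 to 95.2 CPM. Of the 18, 16 were at their highest there. *Slc17a6* gave much of this sum in the other cortices, at 51.8 to 67.9 CPM, and was at 89.6 CPM in replicate 1. *Ntng1*, a thalamic axon guidance gene, was at 33.0 CPM against 5.76 to 9.62 CPM. The 14 hypothalamic genes, all 14 at their highest in that library, summed to 241 CPM against 70.4 to 141 CPM. *Nkx2-1*, at 88.9 CPM against 30.6 to 71.5 CPM, and *Six3*, at 52.9 CPM against 29.1 to 43.7 CPM, gave much of that sum. Neither was among the 8 of the 14 that were at least 2-fold above every other cortex. The 141 CPM was that of control replicate 1, which also had the highest sum of a list of ganglionic eminence genes (853 CPM). Which tissue gave the hypothalamic sums of the other cortices was not tested. Of the 14, 3 had no more than 3 counts in any other cortex. The 11 midbrain and hindbrain genes summed to 10.7 CPM against 0.121 to 1.35 CPM. *Foxa1*, a floor plate gene, gave 8.91 CPM of this, 4 of the 11 were highest in that library, and 5 had no more than 3 counts in any other cortex. None of the 11 was among the genes tested, so the share of 16.9% does not cover them.

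The sum of the 12 genes of cortical identity went the other way, with 2254 CPM in replicate 1 against 3312 to 3757 CPM. Of the 12, 9 were at their lowest there and 1 was at its highest. The share of all genes at their lowest in that library is not given here. In it, 39 of 14749 genes tested were at least 2-fold below every other cortex, with 0.5 CPM added. *Neurod6*, a gene of differentiating cortical excitatory neurons, was at 280 CPM against 485 to 633 CPM. The choroid plexus list (9 genes, 74.3 CPM against 2.56 to 492 CPM), the list of cortical hem and roof plate (10 genes, 40.0 CPM against 23.3 to 63.2 CPM), the Cajal-Retzius list (7 genes, 391 CPM against 308 to 456 CPM) and the list of the ganglionic eminences (10 genes, 821 CPM against 642 to 853 CPM) lay within the range of the other cortices. The Cajal-Retzius list also covers the thalamic eminence, and its sum hid opposite moves in replicate 1. Of its 7 genes, 4 were at their highest there, beside 16.9% of all genes tested, and 1 was at its lowest. *Nhlh2* was at 69.7 CPM against 29.1 to 38.3 CPM, and *Reln* at 185 CPM against 228 to 355 CPM. By genotype the Cajal-Retzius sums were 308 to 351 CPM in the controls and 391 to 456 CPM in the 5 Phf6 -/Y cortices. No share over all genes was set beside these sums. Replicate 1 had the lowest of the 5, with *Lhx5* in it at 27.2 CPM against 6.33 to 13.9 CPM in the other cortices. The part of these shifts in the genotype results was not tested beyond the fits without replicate 1 and without litter 3 given here.

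**Figure D3:**
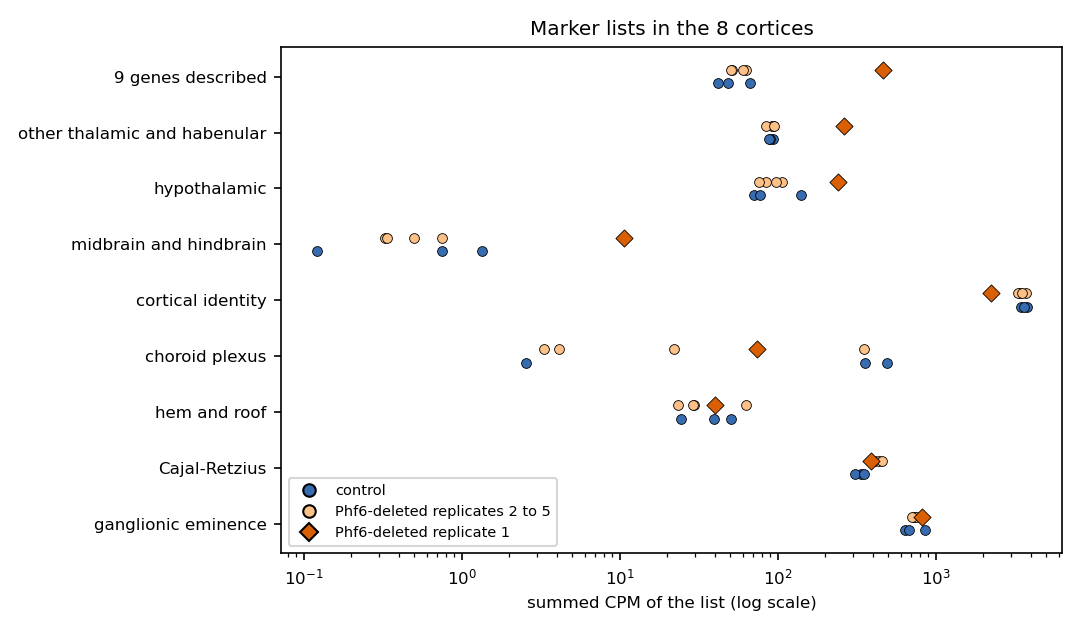
Summed CPM of each marker list in the 8 cortices on a log axis, with controls in blue, Phf6 -/Y replicates 2 to 5 in pale orange and replicate 1 as a diamond. The diamond lies to the right of all circles for the top 4 lists (463, 261, 241 and 10.7 CPM), to the left for cortical identity (2254 CPM) and among the circles for the rest.

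By gene, outside the 9 and at 1 CPM or more in replicate 1, the largest excess over every other cortex was that of *Shox2*, at 16.2 CPM against at most 0.215 CPM. *Irx2*, the long non-coding RNA gene *C130021I20Rik*, *Irx1*, *Foxa1*, *Barhl1*, *Nkx2-2*, *Gata3* and *Nkx2-4* were also among the 10 with the largest excess. All of those named here except *C130021I20Rik* belong to the thalamic and habenular, hypothalamic, or midbrain and hindbrain lists. *Tcf7l2* had the highest place of the 9 genes on the same scale, 5 among 13445 genes, and *Barhl2* the lowest, 93.

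The comparison of Phf6 -/Y with Phf6 +/Y cortices asked whether loss of PHF6 changed these genes in tissue. Of 8 genes tested (*Foxb1* had too few counts), *Dbx1* rose and the other 7 did not pass, beside 0.319% of all genes that were called higher. On the log2 scale *Dbx1* differed by 3.63 (standard error 0.54, FDR = 0.0136, edgeR quasi-likelihood F test including litter, Benjamini-Hochberg adjusted). *Dbx1* was higher than the litter control in 5 of 5 Phf6 -/Y cortices, yet the groups overlapped. In litter 2 the counts were 24 and 11 against 0, in litter 1 they were 22 and 12 against 3, and in litter 3 they were 303 against 29. A pair of the controls thus had 0 and 3 counts. Without replicate 1 the log2 difference was of similar size, 3.33 (standard error 0.92), and the FDR was 0.278. The call was also lost, at similar sizes, without control replicate 1 (3.32, FDR = 0.210), without control replicate 2 (3.39, FDR = 0.0816), without litter 3 (3.33, FDR = 0.366) and without the litter term (3.04, FDR = 0.793, all edgeR).

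The remaining 7 genes were above 0 on the log2 scale but did not pass in edgeR, and 3 of the 8 were at an unadjusted p under 0.05, beside 10.5% of all genes tested. They were 1.39 for *Tcf7l2* (standard error 0.88, FDR = 0.674), 1.32 for *Irx3* (0.54, FDR = 0.427), 1.29 for *Gbx2* (0.56, FDR = 0.530) and 0.82 for *Lhx9* (0.32, FDR = 0.473). For *Pou4f1*, *Otx2* and *Barhl2* the values were 0.70, 0.36 and 0.33. Over the 8 genes the median log2 fold change was 1.05, beside -0.0021 over all genes tested. Without replicate 1 the median was 0.44 and 5 of the 8 stayed positive, with *Tcf7l2* at 0.41, *Irx3* at 0.54, *Gbx2* at 0.59, *Lhx9* at 0.47, *Pou4f1* at -0.18, *Otx2* at -0.06 and *Barhl2* at -0.0018. *Gbx2* was above its litter control in 5 of 5 Phf6 -/Y cortices, and *Lhx9* and *Irx3* in 4 of 5. *Tcf7l2*, *Barhl2* and *Pou4f1* were above it in 3 of 5 and *Otx2* in 2 of 5. These 5 comparisons share 3 controls. Among the lists beside them, the other thalamic and habenular genes had a median of 0.36 with all libraries and -0.13 without replicate 1, with 0 of 10 tested called in edgeR and 1 at an unadjusted p under 0.05 either way. The hypothalamic genes had medians of 1.11 and 0.57, with 0 of 9 called in edgeR, and 5 and 4 at an unadjusted p under 0.05. All 7 Cajal-Retzius genes were above 0 (median 0.29), and *Lhx5* rose (0.77, FDR = 0.0368 in edgeR), whereas without replicate 1 it was *Reln* that passed and 6 of 7 were above 0. Neither *Lhx5* nor *Reln* passed with litter 3 left out or without the litter term. Of the 10 genes of the ganglionic eminences 9 were above 0 (median 0.19), and *Lhx8* rose (0.77, FDR = 0.0393 in edgeR) and passed without replicate 1 too, but not without the litter term. Of the 12 cortical identity genes 0 were above 0 (median -0.23) and none passed in edgeR, with 4 at an unadjusted p under 0.05, and without replicate 1 the median was -0.06 with 4 above 0.

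**Figure D4:**
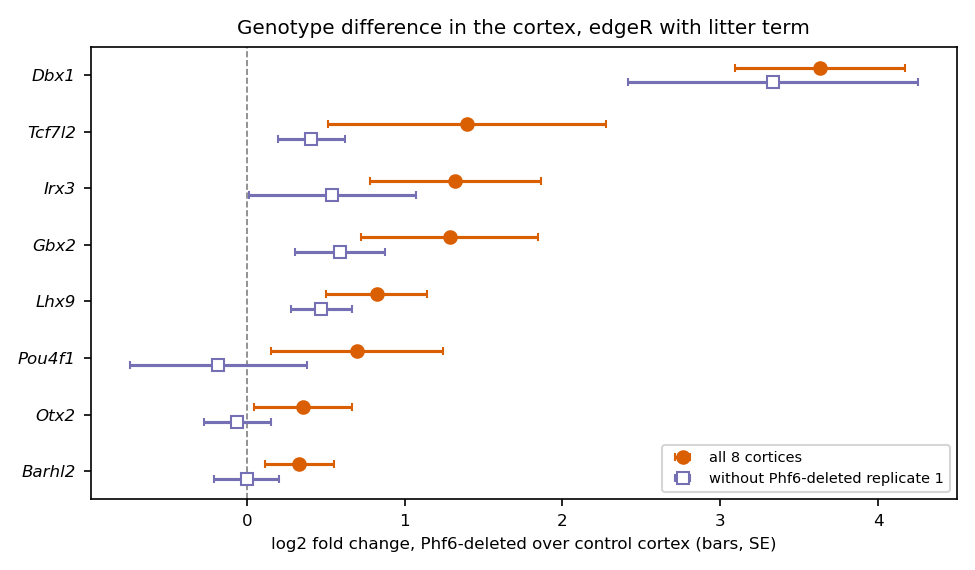
Log2 fold change of Phf6 -/Y over Phf6 +/Y cortex for the 8 genes tested in edgeR, with standard errors as bars, over all 8 cortices (filled) and without Phf6 -/Y replicate 1 (open). *Dbx1* stays above 3 in both fits, while *Otx2*, *Barhl2* and *Pou4f1* move from 0.36, 0.33 and 0.70 to values at or below 0.

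In the cultured neurons *Lhx9* lay between 7.41 and 15.7 CPM, and the other 8 genes were below 3 CPM in every culture. *Tcf7l2* lay between 1.44 and 2.61 CPM, *Otx2* between 0.415 and 2.66 CPM, and *Gbx2*, *Pou4f1* and *Irx3* at 0.637 CPM or less. *Dbx1* had 3 counts in control replicate 2, 4 counts in Phf6 lox/Y NesCre T/+ replicate 1 and 0 in the other 5 cultures. *Foxb1* had 0 counts in all 7, which allows up to 0.110 to 0.191 CPM by library at 3 counts. These values cover counting error only.

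*Lhx9* was the gene of the 9 that differed between genotypes in the neurons. It was at 7.41, 9.14 and 7.76 CPM in the controls and at 12.8, 13.6, 15.7 and 13.4 CPM in the Phf6 lox/Y NesCre T/+ cultures. All 4 deleted cultures were above all 3 controls, as for 3.61% of the 13908 genes tested. On the log2 scale the difference was 0.82 (standard error 0.14, FDR = 0.0172, edgeR including litter), beside 0.194% of genes called higher, and *Lhx9* was higher in 3 of 3 litters. Replicate 1 of the deleted cultures comes from litter 7, which has no control, so the fit takes the genotype difference from litters 4 to 6. The call was lost without control replicate 2 (FDR = 0.103), without deleted replicate 3 (FDR = 0.0795) and without the litter term (FDR = 0.293, all edgeR), whereas the estimate itself ranged from 0.78 to 0.83 as each library was omitted.

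*Barhl2* was at 0.623, 0.784 and 1.10 CPM in the controls and at 1.72, 1.77, 1.59 and 1.87 CPM in the deleted cultures. Its groups did not overlap either, and it was higher in 3 of 3 litters, but it did not pass the test (log2 fold change 1.09, standard error 0.42, FDR = 0.366 in edgeR). *Otx2* (0.30 ± 0.44, standard error) and *Tcf7l2* (-0.0056 ± 0.32) had log2 fold changes smaller than their errors, and the other 5 genes had too few counts to be tested. Cajal-Retzius markers were also higher in the deleted cultures. In litter 4 the sum of the Cajal-Retzius list was 118.0 CPM in the control and 219.5 CPM in the deleted culture. These values were 133.3 and 205.5 CPM in litter 5, and 172.8 and 279.3 CPM in litter 6. Among the deleted cultures, replicate 1, from litter 7 without a control, had the highest sum of that list (385 CPM) and the lowest *Lhx9* (12.8 CPM). Replicate 3 had the lowest sum (205 CPM) and the highest *Lhx9* (15.7 CPM). The 7 genes of that list summed to 118 to 173 CPM in controls and 205 to 385 CPM in deleted cultures, all 7 with positive log2 fold changes. *Reln* was at 81.9 to 129 CPM and 144 to 315 CPM, and it and *Ndnf* rose (log2 fold changes 0.81 and 1.24, FDR = 1.36e-05 and 0.0038 in edgeR). The choroid plexus gene *Ttr*, which encodes transthyretin, also rose, from 0.404 to 2.12 CPM in controls to 2.43 to 22.3 CPM in deleted cultures (log2 fold change 2.84, FDR = 0.00018 in edgeR). Without the litter term *Reln*, *Ndnf* and *Ttr* all lost their calls. The part of these markers in the *Lhx9*, *Barhl2* and *Otx2* values was not tested. The other thalamic and habenular list summed to 82.7 to 99.0 CPM in controls and 64.8 to 88.4 CPM in deleted cultures. Most of that was *Slc17a6*, at 70.5 to 85.1 CPM in controls and 49.6 to 76.8 CPM in deleted cultures. *Shox2*, *Irx1*, *Irx2*, *Gata3* and *Barhl1* of the same list were at 0.442 CPM or less in every culture. Of the 4 genes of that list tested, 0 were called in edgeR and 0 were at an unadjusted p under 0.05, beside 10.3% of all genes tested.

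**Figure D5:**
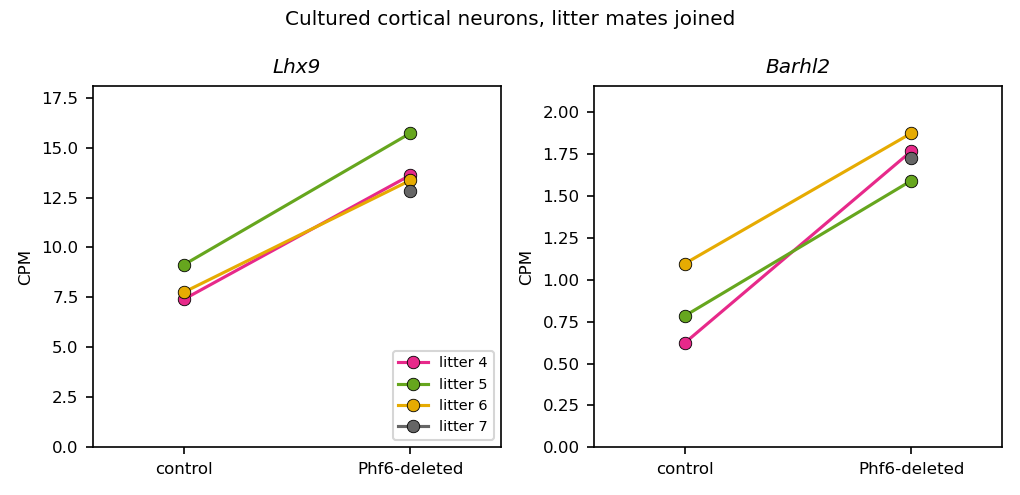
CPM of *Lhx9* and *Barhl2* in control and Phf6-deleted cultured neurons, with litter mates joined by lines and the litter 7 culture, which has no control, as a single point. Each line rises, from 7.41 to 13.6 CPM, 9.14 to 15.7 CPM and 7.76 to 13.4 CPM for *Lhx9*.

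A test of whether the genotype difference was the same in both settings, the genotype-by-tissue interaction over all 15 libraries, called 0 of 8 genes tested in edgeR, 0 in DESeq2 (which gave *Dbx1*, *Pou4f1* and *Irx3* no adjusted p), and 1 at an unadjusted p under 0.05 in edgeR, beside 0.0133% of all genes called and 5.2% at that unadjusted p. That 1 gene was *Dbx1*, with an interaction of -6.54 (standard error 2.09, FDR = 0.740), in which the neuron side rests on 7 counts in all. The interaction of *Lhx9* was -0.0117 (standard error 0.39) and that of *Barhl2* 0.76 (standard error 0.39, FDR = 0.955).

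Control neurons were also set beside control cortices. These groups differ in age, culture, the Cre transgene and litter as well as in cell makeup, which cannot be told apart. Of 7 genes tested, 6 were lower in neurons, as were 26.4% of all genes tested. The log2 difference, neurons minus cortex, was -3.78 for *Gbx2* (standard error 0.55, FDR = 8.4e-05), -2.99 for *Barhl2* (0.31, FDR = 4.7e-06), -2.85 for *Otx2* (0.52, FDR = 0.0016), -2.61 for *Tcf7l2* (0.30, FDR = 2.1e-05), -2.46 for *Irx3* (0.76, FDR = 0.0154) and -1.23 for *Lhx9* (0.21, FDR = 0.0004), all from edgeR. *Pou4f1* at -1.02 (standard error 0.55, FDR = 0.138 in edgeR) did not pass. *Irx3* lost its call without cortex control replicate 1 (-2.06, FDR = 0.0881) and without neuron control replicate 3 (-1.88, FDR = 0.0532, both edgeR), with differences of similar size. Scaling by library totals moved the median of all genes from -0.028 to -0.167, less than the smallest of these differences.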

How the data were processed

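RNA was sequenced from 8 cortices and 7 neuron cultures. The authors deposited raw counts, 1 value per Entrez gene and library. They had aligned read pairs to mm10 with Rsubread and assigned them to the RefSeq gene models built into featureCounts. The strand setting of the counting is not given in the sources used here. Of the 9 genes, *Tcf7l2* overlaps another gene in the annotation, a long non-coding RNA. The 15 per-sample files equalled their columns of the series table. Rows without a gene identifier (1029, 0.35 to 0.61% of counts) were left out. Identifiers were matched to RefSeq on GRCm38.p6 (875 of 26150 not matched), and pseudogenes (835), ribosomal RNA genes (35) and predicted names (1276) were removed.

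Genes passing filterByExpr were tested with edgeR 4.0.16 (TMM, robust quasi-likelihood, FDR threshold 0.05) in R 4.3.3, per tissue, with litter as a fixed term. Pairing comes from the litters in the labels, and the replicate numbers do not mark litters. Alternatives were DESeq2 1.42.0 and limma-trend (limma 3.58.1), other scaling, no filter, other blocks and each library or litter 3 left out. The fits were checked on simulated counts. Log levels use a pseudocount of 0.5 CPM.

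The 9 genes, the lists and the tests were chosen with earlier results of these data known. Beyond the 9 genes, named genes were the 10 most correlated with their mean over the cortices, the 10 with the largest excess in Phf6 -/Y replicate 1, and in each list those called or among the 3 most abundant, of which examples are given; some genes are left out of the text. Each library is 1 foetus, so p-values measure the spread between foetuses.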

Additional observations from a re-analysis of the deposited data

Results flagged for a closer look

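In groups of 4 to 10 libraries, a library was picked out where its gap to the nearest other library was a large share of the group's range (Dixon's test). Of 35 combinations of gene or list and group examined, 17 were picked out. Chance picks out about 1 in 20 where groups and genes are chosen without regard to their values, which was not so here, since the genes were chosen with Phf6 -/Y cortex replicate 1 in view. Of the 17, 14 were Phf6 -/Y cortex replicate 1 among the 5 Phf6 -/Y cortices. It was the highest for *Tcf7l2* (267.9 CPM), *Lhx9* (79.32 CPM), *Gbx2* (38.86 CPM), *Otx2* (24.58 CPM), *Barhl2* (17.6 CPM), *Dbx1* (12.73 CPM), *Irx3* (11.01 CPM), *Pou4f1* (5.671 CPM), *Foxb1* (5.167 CPM) and the sum of the 9 genes (462.9 CPM). It was also the highest for the sums of the other thalamic and habenular list (261.1 CPM), the hypothalamic list (240.8 CPM) and the midbrain and hindbrain list (10.67 CPM), and the lowest for the cortical identity list (2254 CPM). These share 1 library and are not separate observations.

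Elsewhere, among the 5 Phf6 -/Y cortices the choroid plexus list was highest in replicate 4 (350.7 CPM). Control cortex replicates 2 (491.5 CPM) and 3 (359.2 CPM) were higher. In the deleted neurons, *Dbx1* was highest in replicate 1 (0.197 CPM, from 4 counts) and *Irx3* in replicate 3 (0.5728 CPM), both at levels of few reads.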

How the results depend on the processing

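The number of the 9 genes called was 1 in the cortex (*Dbx1*) and 1 in the neurons (*Lhx9*). It became 0 in each with no replicate block, 0 in the cortex with litter 3 left out, and 0 in the neurons with the label's replicate number as the block, which does not mark litters. Leaving out each library gave 0 to 1 in both. DESeq2, limma-trend, other scalings and no filter kept the count at 1 in each. In the neurons DESeq2 gave *Otx2*, *Tcf7l2* and *Barhl2* no adjusted p, so only *Lhx9* could be called there. Over all genes, those called higher in the cortex numbered 47, against 153 with DESeq2, 95 with no filter, 8 with litter 3 left out, 0 with no replicate block and 6 to 68 with each library left out. In the neurons they numbered 27, against 48 with DESeq2, 46 with library totals, 178 with no filter, 0 with no replicate block, 3 with the replicate number as the block and 12 to 326 with each library left out. Between control neurons and control cortex, and for the interaction, no alternative moved the number of the 9 genes called by more than 1.5 times. Over all genes, the interaction called 1 higher and 1 lower, against 2 higher and 10 lower with DESeq2 and 0 of either with no replicate block. The ratio of the summed level in Phf6 -/Y replicate 1 to the next cortex, 6.91, was 5.343 from mean log2 levels, 3.992 without *Tcf7l2* and 8.917 without *Lhx9*. Log2 fold changes near 0 changed sign. With litter 3 left out, those in the cortex were -0.0669 for *Otx2*, -0.0096 for *Barhl2* and -0.1862 for *Pou4f1*, and with each library left out they ran from -0.0624 to 0.7168, -0.0045 to 0.6108 and -0.181 to 1.2229. Litter 3 holds 1 pair, so leaving out either library of it removes the pair from the paired difference. In the neurons *Tcf7l2* was 0.064 with no replicate block and 0.2167 with the replicate number as the block, and ran from -0.1112 to 0.1664 with each library left out (*Otx2* from -0.0467 to 0.5833). For the interaction, *Otx2* was 0.1232 with no replicate block and *Lhx9* 0.0055 in DESeq2, and leaving out each library gave -0.4413 to 0.3355 for *Otx2*, -0.4714 to 0.3442 for *Lhx9* and -1.6485 to 0.0423 for *Pou4f1*. The causes were not tested. Depth limits *Dbx1*, *Foxb1*, *Pou4f1* and *Irx3*, which rest on few counts outside Phf6 -/Y cortex replicate 1.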
